A study of Homo sapiens with 29 samples.

Results

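The addition of doxorubicin to decitabine was examined in xenograft tumours of the parental line. The comparison uses 8 of the 29 libraries of the series, chosen by their titles: 4 from tumours given both drugs (A_DAC_DOX, here the combination group) and 4 from tumours given decitabine alone (A_DAC, the decitabine group). The tumours grew from 250000 MDA-MB-231 cells, a line from a human breast cancer without hormone receptors or HER2, placed orthotopically on both sides of SCID-beige mice. These mice lack mature T and B cells and have poor natural killer cells, but keep their own macrophages, fibroblasts and vessels. Treatment started 6 days after injection and lasted 26 days, as 2 cycles of 12 days with 2 days of rest between them. Both groups received 0.4 mg/kg decitabine on days 1 to 4 and 10 to 11 of each cycle, and the combination group also received 1 mg/kg doxorubicin on days 5 and 12. Parental tumours given vehicle (A_veh, 4 libraries) or doxorubicin alone at that dose and on those days (A_DOX, 3 libraries) stand beside them. For 1 comparison, tumours of a paclitaxel-resistant derivative given decitabine (B_DAC, 3 libraries) or both drugs (B_DAC_DOX, 3 libraries) were used. Those grew from 1500000 cells and were treated from day 16, so the line cannot be told apart from these differences. The labels give 4 mice per treatment and tie no library to a mouse, so libraries could share a mouse. The p-values set a difference against the spread between libraries within groups, fitted over all 29 libraries of the series. That spread need not be the spread between mice.

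Decitabine is a deoxycytidine analogue that is built into DNA during replication and traps DNA methyltransferases there, so that methylation is lost as cells divide. Doxorubicin is an anthracycline that slips between the bases of DNA and holds topoisomerase II on it after the cut, which leaves double-strand breaks. Cells with broken DNA stop at checkpoints. Genes for DNA synthesis are transcribed largely through E2F factors, and genes for mitosis through CCAAT boxes and cell cycle homology regions in their promoters. MDA-MB-231 carries a mutant p53, the factor that otherwise switches on CDKN1A and MDM2 after DNA damage.

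The 8 libraries held 4445548 to 5382295 counts, of which mitochondrially encoded genes took 6.94% to 8.25%. Levels are counts per 1000000 of the scaled library size (CPM) and differences are fitted log2 fold changes with standard errors (SE). Genes at an adjusted p under 0.05 in edgeR's quasi-likelihood test, adjusted over all 13495 tested, count as called, and "rose" and "fell" are used of these. In bulk tumour tissue, fewer cells of a type and less RNA per cell cannot be told apart. The first principal component of the 8 libraries held 41% of the variance, with the decitabine group from -32.3 to -2.19 and the combination group from 7.74 to 24.6. Decitabine replicate 3 lay farthest out. All 10 markers of the carcinoma line were tested and none was called. None of the tested markers of fibroblasts (6 of 10), endothelium (7 of 11), myeloid cells (7 of 14), lymphocytes and natural killer cells (2 of 12) and adipocytes (1 of 8) was called, and none of 10 muscle markers had enough counts for the test. With the replicate number as a block, markers called higher and lower numbered 3 and 1 for the carcinoma line, 0 and 1 for fibroblasts, 1 and 0 for endothelium and 1 and 0 for lymphocytes. A marker of the carcinoma line was also called with DESeq2, with GC and length offsets, with no filter on low counts, without decitabine replicate 1 or 4, or without 2 libraries that stood apart, vehicle replicate 3 of the parental and decitabine replicate 2 of the resistant line. With no filter 3 fibroblast markers were lower. VWF, TYROBP, ITGAM, CD3E and ADIPOQ had 0 counts in the 8 libraries, but other markers of the same lists were detected. ESAM, PECAM1, LAPTM5, CD68, IL7R and FABP4 had 2330, 220, 1961, 417, 109 and 47 counts over the decitabine libraries. Over the combination libraries they had 2685, 335, 1600, 494, 175 and 35. ESAM and LAPTM5 held most counts of the tested endothelial and myeloid markers. Summed fibroblast markers ran from 744 to 2056 CPM in the decitabine group, highest in replicate 3, and from 360.3 to 774 CPM in the combination group, and their part in the results was not tested. Summed endothelial markers ran from 145 to 166 CPM in the decitabine group and from 158 to 197 CPM in the combination group. Summed myeloid markers ran from 106 to 189.9 CPM with decitabine and from 92.5 to 146 CPM with the combination.

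Adding doxorubicin to decitabine changed 895 genes, 6.63% of those tested. Of these, 369 rose (2.73%) and 526 fell (3.9%), and 128 of the first and 79 of the second moved by at least 1 log2 unit. A percentage in brackets after the counts of a gene list below is the share of its tested members called, to be read beside 6.63%. Other settings called other shares of all genes, and list counts under them are to be read beside those. With the replicate block 2578 of 12298 genes were called, and 2693 of 12298 with the block and GC and length offsets. The total was 1194 of 13495 with DESeq2, 1303 of 30339 with no filter, and 210 of 13444 without decitabine replicate 3. Genes of mitosis, DNA replication and DNA repair were among those that fell. Genes of hypoxia and glycolysis, class I antigen presentation, NF-kB signalling and the immediate-early response were among those that rose. The smallest adjusted p-values belonged to NASP, a histone chaperone, which fell by 0.85 (SE 0.12, adjusted p = 0.00107), and to DEK, a chromatin protein, which fell by 0.70 (SE 0.10, adjusted p = 0.00133). Both were named after their values were seen. The groups did not overlap for 2144 genes (15.9%), 8.14% of all genes being higher and 7.74% lower in every combination library.

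**Figure D1:**
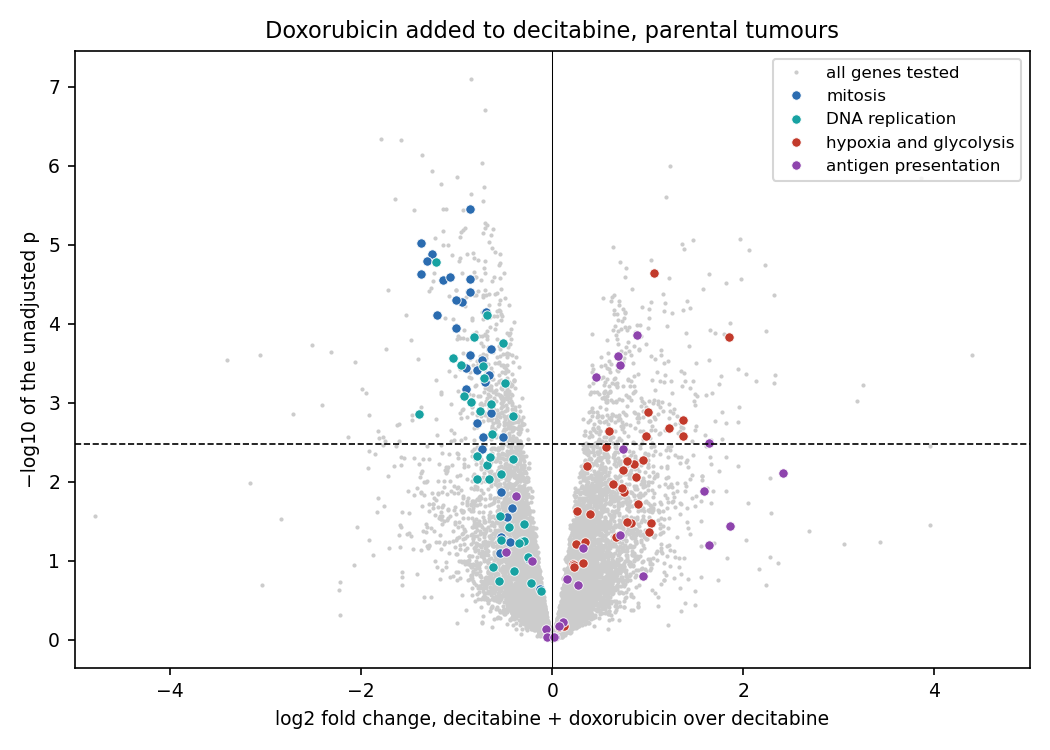
Each point is 1 of 13495 genes, with the fitted log2 fold change of the combination over decitabine alone on the x axis and −log10 of the unadjusted p on the y axis. The dashed line marks the largest p that was called, and 1 gene lies beyond the x axis limits; members of the mitosis and DNA replication lists lie to the left of 0 and members of the hypoxia and glycolysis list to the right.

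The size of this set rested on few libraries. Without decitabine replicate 3, 210 genes were called, 51 higher and 159 lower, and the total was 364 without combination replicate 2, 525 without combination replicate 1 and 579 without decitabine replicate 4. Without combination replicate 4, 194 genes were called higher, and without decitabine replicate 2, 230. With the replicate number as a block in a fit of these 8 libraries, 2578 genes were called, 1276 higher and 1302 lower. The fit of these 8 libraries without the block called 1028 genes, 469 higher and 559 lower. Of 106 called genes that the rule for named genes selected or that were added to it, 41 were called with each of the 8 libraries left out and 65 lost the call in at least 1 of those fits. Most of the 106 were picked by small p or large change in these same libraries, so they do not stand for all 895 called genes.

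**Figure D2:**
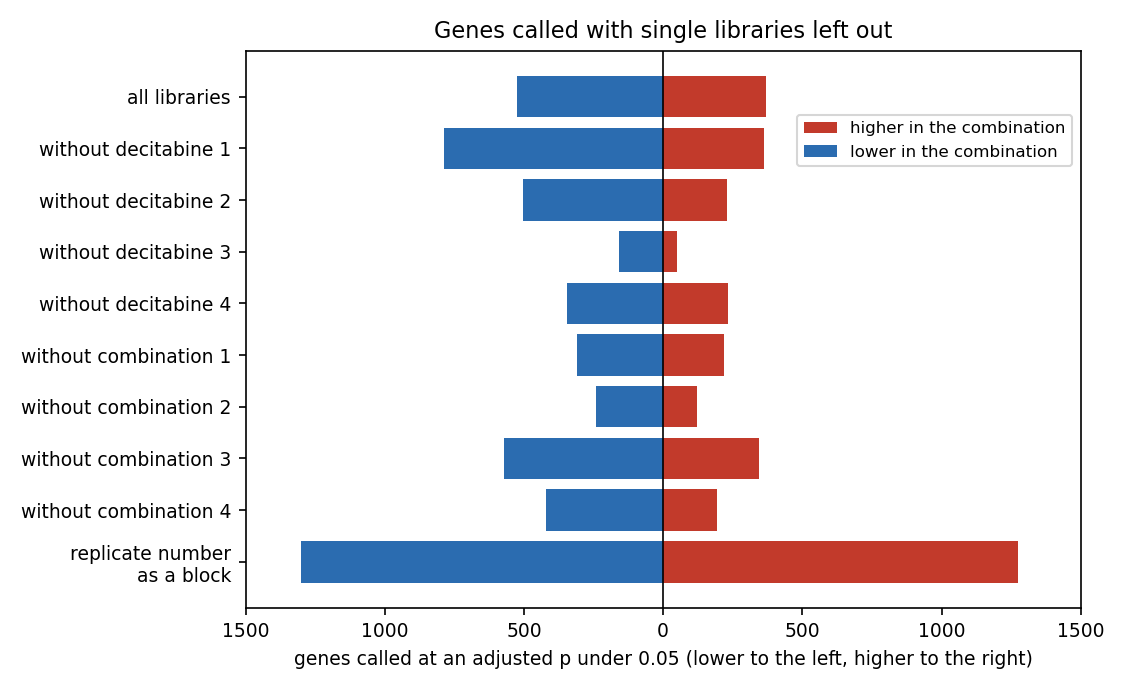
Bars give the number of genes called higher and lower in the combination group with all libraries, with each of the 8 libraries left out in turn, and with the replicate number as a block in a fit of the 8 libraries alone. The counts are lowest without decitabine replicate 3, with 51 higher and 159 lower, and highest with the block, with 1276 and 1302.

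Genes of mitosis and chromosome segregation were lower in the combination group. Of 36 tested, 27 fell and 0 rose, beside 3.9% of all genes that fell. The fitted value was below 0 for 36 of 36, with a median of -0.76 where that of all genes was 0.02. TOP2A, the topoisomerase that untangles chromosomes before they part and that doxorubicin traps (ENSG00000131747, chromosome 17, 40388516 to 40417950, minus strand, GRCh38), stood at 1089, 1131, 1461 and 1224 CPM in the decitabine libraries and at 660.4, 713, 955 and 705 CPM in the combination libraries. No library of one group reached the other, and TOP2A fell by 0.69 (SE 0.15, adjusted p = 0.00668). MKI67, which coats mitotic chromosomes and is the common marker of proliferating cells (ENSG00000148773, chromosome 10, 128096659 to 128126385, minus strand), stood at 304, 381, 481 and 487 CPM with decitabine and at 125, 141, 203 and 169.6 CPM with the combination. Every combination library was below the lowest decitabine library, and MKI67 fell by 1.37 (SE 0.25, adjusted p = 0.00338). CDK1, the kinase that drives entry into mitosis, fell by 0.86 (SE 0.15, adjusted p = 0.00231), from 155 to 209 CPM to 86.2 to 103 CPM. CENPE, a motor of the kinetochore, fell by 1.31 (SE 0.25, adjusted p = 0.00369), from 156 to 285 CPM to 73.5 to 109 CPM. ANLN, a scaffold of the ring that pinches dividing cells apart, fell by 1.26 (SE 0.24, adjusted p = 0.00362). SPC25 and KNL1, of the outer kinetochore, CENPM, of its inner part, and ESCO2, which acetylates cohesin, were among the largest falls, at -1.37, -1.34, -1.29 and -1.65. Mitosis genes called numbered 14 without decitabine replicate 3. 

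Of 36 genes of DNA replication tested, 16 fell and 0 rose (44.4%). The fitted value was below 0 for 36 of them, with a median of -0.62. POLA1, the catalytic subunit of the polymerase that starts each DNA strand (ENSG00000101868, chromosome X, 24693919 to 24996986, plus strand), stood at 26.6, 25.5, 40.8 and 52.7 CPM with decitabine and at 13.2, 14.3, 18.4 and 16.2 CPM with the combination. No combination library reached a decitabine library, and POLA1 fell by 1.22 (SE 0.24, adjusted p = 0.00369). PRIM1, its primase partner, stood at 10.4, 12.5, 22.6 and 9.75 CPM with decitabine and at 5.03, 5.11, 5.85 and 5 CPM with the combination. Decitabine replicate 3 was the highest library, and PRIM1 fell by 1.40 (SE 0.39, adjusted p = 0.0309). CDC6, which loads the replicative helicase, fell by 0.82 (SE 0.19, adjusted p = 0.00939). MCM4 and MCM3, subunits of that helicase, fell by 0.68 (SE 0.15, adjusted p = 0.00689) and 0.52 (SE 0.12, adjusted p = 0.0105). RRM2, the regulated subunit of ribonucleotide reductase, fell by 0.72 (SE 0.18, adjusted p = 0.0183), and E2F8, a repressor of the E2F family outside the list, by 1.40 (SE 0.34, adjusted p = 0.0134). Replication genes called numbered 2 without decitabine replicate 3, 7 without combination replicate 2, 9 without combination replicate 4, and 10 without combination replicate 1. Replication genes called by other settings numbered 28 with the replicate block, and 30 with the block and offsets. PRIM1, CDC6, MCM3 and RRM2 lost the call without decitabine replicate 3, PRIM1 and RRM2 without combination replicate 4, PRIM1 without combination replicate 1 or 2, and E2F8 without decitabine replicate 4 (adjusted p up to 0.176). 

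Promoters of 3 of these genes are shown because members of both lists moved together and their classes are known for different promoter elements. The windows are the 250 bases before the start that RefSeq gives on GRCh38.p14, in the direction of the gene. That start can differ from the gene spans printed here, which are from GENCODE, and the TOP2A window reaches into the printed TOP2A span. Capitals mark every match of the named motif on either strand. In TOP2A (chr17:40417897-40418146, minus strand) they mark the CCAAT box, CCAAT or ATTGG, and in MKI67 (chr10:128126424-128126673, minus strand) the cell cycle homology region, TTTGAA or TTCAAA. In POLA1 (chrX:24693668-24693917, plus strand) they mark the E2F site, searched as TTTCCCGC, TTTGGCGC and TTTCGCGC on both strands.
TOP2A: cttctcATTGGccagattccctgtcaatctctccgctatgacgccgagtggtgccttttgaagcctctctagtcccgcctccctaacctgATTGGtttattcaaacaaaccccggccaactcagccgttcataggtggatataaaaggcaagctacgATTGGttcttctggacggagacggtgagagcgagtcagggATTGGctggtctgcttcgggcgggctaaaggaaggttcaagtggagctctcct
MKI67: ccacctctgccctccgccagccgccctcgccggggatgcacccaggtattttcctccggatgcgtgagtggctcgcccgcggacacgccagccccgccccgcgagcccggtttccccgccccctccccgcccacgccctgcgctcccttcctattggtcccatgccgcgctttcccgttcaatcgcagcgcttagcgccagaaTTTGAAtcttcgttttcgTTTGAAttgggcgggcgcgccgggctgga
POLA1: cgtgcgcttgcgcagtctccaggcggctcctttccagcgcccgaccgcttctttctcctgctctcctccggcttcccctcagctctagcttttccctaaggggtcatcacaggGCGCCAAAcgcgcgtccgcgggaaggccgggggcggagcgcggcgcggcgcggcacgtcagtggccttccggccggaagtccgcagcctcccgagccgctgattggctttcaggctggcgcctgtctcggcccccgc
TOP2A held 4 CCAAT boxes, which begin 244, 160, 93 and 53 bases upstream of the RefSeq start. MKI67 held 2 cell cycle homology regions, at 47 and 29 bases, and POLA1 held 1 E2F site, at 137 bases. Of the 30 mitosis genes matched to the promoter table, 80% held a CCAAT box and 56.7% a cell cycle homology region, while 35.5% and 8.48% of 10019 promoters of tested genes did. Of 31 matched replication genes, 38.7% held one of the E2F sequences, 3.23% a cell cycle homology region and 61.3% a CCAAT box, while 3.97% of all promoters held an E2F sequence. Of the 420 matched genes that fell, 45.7% held a CCAAT box, 16.9% a cell cycle homology region and 5% an E2F sequence. A match of letters is a description and not a site of binding.

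DNA damage checkpoint and repair genes were lower too. Of 39 tested, 15 fell and 0 rose (38.5%), with a median of -0.41 and 36 fitted values below 0. CLSPN, which passes the signal of the kinase ATR on to CHK1 at stalled forks (ENSG00000092853, chromosome 1, 35720218 to 35769967, minus strand), stood at 141, 158, 274 and 179.7 CPM with decitabine and at 54.9, 52.1, 84.5 and 60.4 CPM with the combination. The highest combination library was below the lowest decitabine library, and CLSPN fell by 1.58 (SE 0.24, adjusted p = 0.00161). BRCA2, a central protein of homologous recombination, stood at 52.6, 76.5, 103 and 80.3 CPM with decitabine and at 27.4, 25.3, 38.3 and 30.4 CPM with the combination. The groups did not overlap, and BRCA2 fell by 1.36 (SE 0.21, adjusted p = 0.0019). XRCC2, which also serves homologous recombination, fell by 1.45 (SE 0.25, adjusted p = 0.00231), and PRKDC, the kinase of end joining, by 0.90 (SE 0.17, adjusted p = 0.00362). FANCB, of the Fanconi anaemia core complex, and POLQ, the polymerase of another end-joining route, were among the largest falls, at -1.72 (SE 0.35, adjusted p = 0.00524) and -1.61 (SE 0.47, adjusted p = 0.0353). FAM111B, named here as one of the largest falls, encodes a trypsin-like protease (ENSG00000189057, chromosome 11, 59107185 to 59127410, plus strand). It stood at 49.6, 57.3, 94.4 and 73.1 CPM with decitabine and at 18.2, 14.1, 24.2 and 22.7 CPM with the combination. Its groups did not overlap, which the rule for the largest falls required, and it fell by 1.79 (SE 0.27, adjusted p = 0.00161). Repair genes called numbered 5 without decitabine replicate 3, and 9 without combination replicate 1 or 2. Repair genes called by other settings numbered 24 lower and 1 higher with the block and offsets, and 26 lower and 1 higher with the replicate block. The call of POLQ was lost without combination replicate 1, 2 or 4 or decitabine replicate 2, 3 or 4 (adjusted p up to 0.107). 

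Of 13 topoisomerases and genes that remove topoisomerases stuck on DNA, 5 fell and 0 rose (38.5%). Beside TOP2A these were TOP1, the topoisomerase that relaxes transcribed DNA, at -0.73 (SE 0.13, adjusted p = 0.00231), and RBBP8, MRE11 and NBN, which trim broken ends, at -0.58 (SE 0.12, adjusted p = 0.00529), -0.41 (SE 0.12, adjusted p = 0.0343) and -0.36 (SE 0.11, adjusted p = 0.0408). NBN was named to complete the count, after its value was seen. TOP1 stood at 341, 375, 495 and 431 CPM with decitabine and at 228, 241, 254 and 270 CPM with the combination, without overlap. TOP2B, the form of topoisomerase II that resting cells keep, had 179 to 241 CPM with decitabine and 163 to 177 CPM with the combination. TOP2B was not called (-0.34, SE 0.12, adjusted p = 0.0796), but was with the replicate block (adjusted p = 0.0264). Topoisomerase genes called numbered 3 without combination replicate 1, 2 or 4 or decitabine replicate 3. Topoisomerase genes called by other settings numbered 3 with GC and length offsets. MRE11 and NBN lost the call without combination replicate 1, 2 or 4 or decitabine replicate 3, MRE11 without decitabine replicate 4, and NBN without combination replicate 3 or decitabine replicate 2 (adjusted p up to 0.126). MRE11 and NBN were also not called with GC and length offsets or with no filter on low counts, and NBN with upper quartile factors.

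Of 18 genes of DNA methylation, 2 fell and 0 rose (11.1%, beside 6.63% of all genes). DNMT1, the maintenance methyltransferase that decitabine traps (ENSG00000130816, chromosome 19, 10133345 to 10231286, minus strand), stood at 333, 317, 374 and 306 CPM with decitabine and at 242, 215, 194 and 196 CPM with the combination. All 4 combination libraries lay below the decitabine libraries, and DNMT1 fell by 0.65 (SE 0.15, adjusted p = 0.00827). HELLS, a remodeller that helps methylation in packed chromatin, stood at 187, 194, 236 and 209 CPM with decitabine and at 105, 94.7, 108 and 101 CPM with the combination, and fell by 1.01 (SE 0.21, adjusted p = 0.00561). Both were called with each of the 8 libraries left out. The de novo methyltransferases DNMT3A and DNMT3B were at -0.32 (SE 0.18, adjusted p = 0.278) and -0.52 (SE 0.34, adjusted p = 0.367), with overlapping groups. Methylation genes called numbered 4 with the replicate block, and 5 lower and 1 higher with the block and offsets.

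The levels in all 4 parental groups place these lists. Mitosis genes summed to 4809.7 ± 947 CPM with vehicle (mean ± SD, n = 4), 4805 ± 512 with doxorubicin alone (n = 3), 6679 ± 878 with decitabine (n = 4) and 4149.6 ± 502 with the combination (n = 4). Replication genes summed to 2226 ± 320.5, 2298 ± 213, 2977 ± 325 and 2058 ± 171 CPM in the same order, and repair genes to 2294 ± 191, 2176 ± 146, 2752 ± 221 and 2058 ± 85.8 CPM. In replication and repair every decitabine library lay above every other parental library. In mitosis the highest vehicle library, at 5769 CPM, reached the lowest decitabine library, at 5767 CPM. TOP2A had 850.3 ± 128 CPM with vehicle and 899 ± 127 with doxorubicin alone, and DNMT1 had 229 ± 38.9 and 256 ± 21.8 CPM. Of the 369 genes that rose, 342 (92.7%) had a vehicle mean above the decitabine mean. Of the 526 that fell, 498 (94.7%) had a vehicle mean below it. The decitabine libraries also selected these genes, so part of this follows from the selection, and the share over all genes was not counted.

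**Figure D3:**
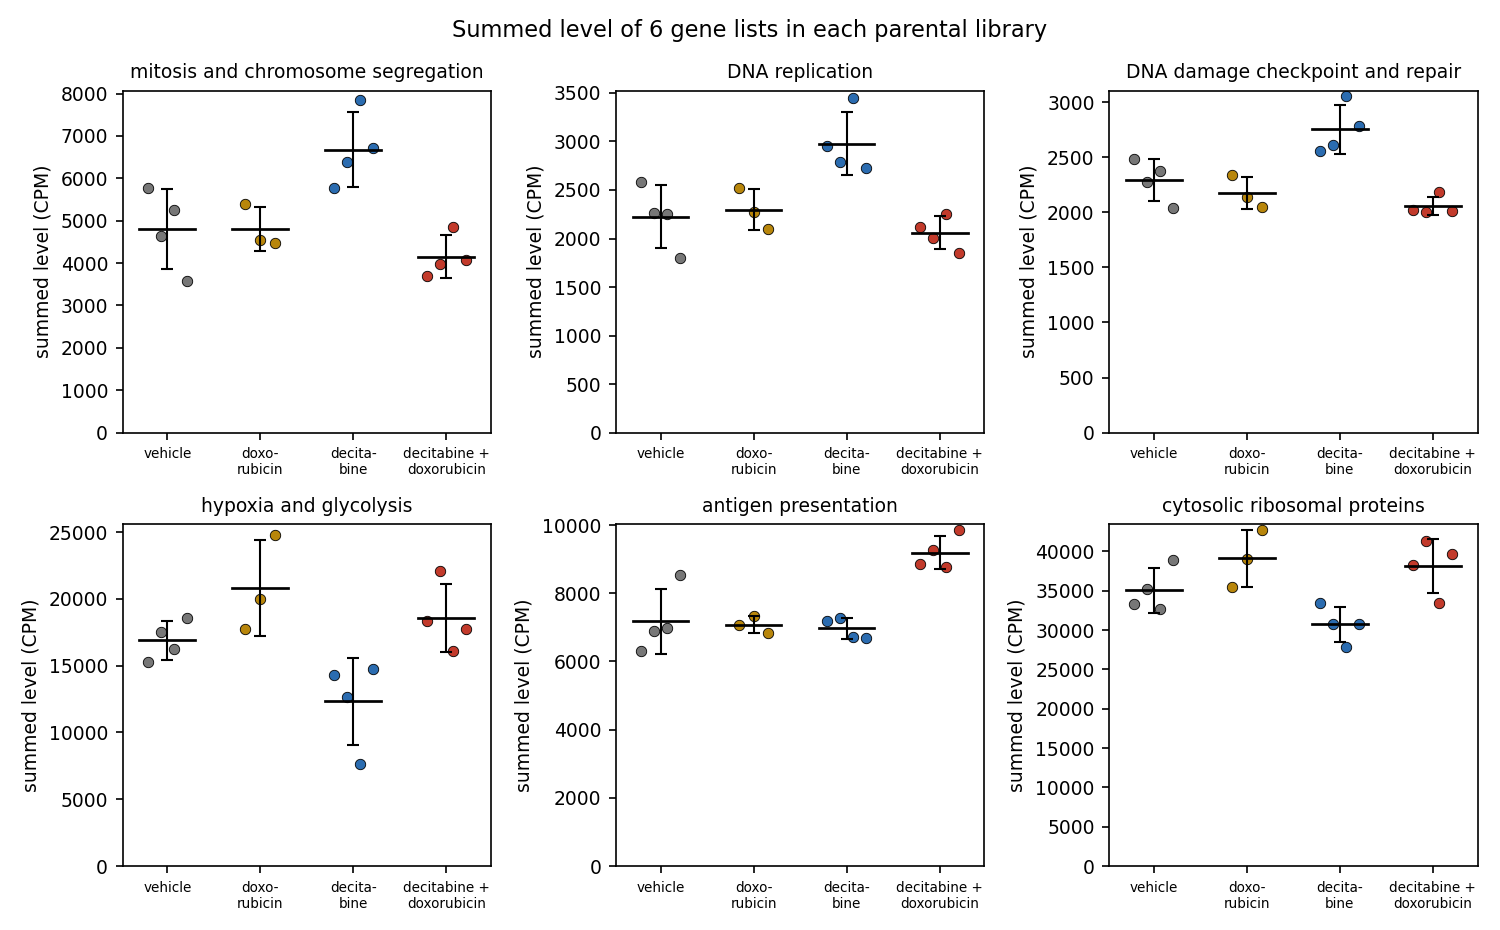
Points are the summed CPM of the tested members of 6 gene lists in each parental library, with the group mean and the SD as an error bar, for 4 vehicle, 3 doxorubicin, 4 decitabine and 4 combination libraries. Mitosis genes sum to 5767 to 7858 CPM with decitabine and to 3686 to 4861 CPM with the combination, and hypoxia genes to 7653 to 14752 and 16076 to 22092 CPM.

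Genes of hypoxia and glycolysis, which the hypoxia-inducible factors switch on when oxygen is short, were higher in the combination group. Of 34 tested, 8 rose and 0 fell, beside 2.73% of all genes that rose. The fitted value was above 0 for 34 of them, with a median of 0.74. ENO2, an enolase of glycolysis (ENSG00000111674, chromosome 12, 6913745 to 6923698, plus strand), stood at 76.3, 70.4, 33.9 and 67.8 CPM with decitabine and at 142, 144, 113 and 123 CPM with the combination. Replicate 3 was the lowest library of each group, the groups did not overlap, and ENO2 rose by 1.07 (SE 0.21, adjusted p = 0.00433). EGLN3, a prolyl hydroxylase that marks the hypoxia-inducible factors for destruction, stood at 4.37, 3.07, 0.975 and 8.12 CPM with decitabine and at 13.8, 20.6, 10.1 and 14.2 CPM with the combination. Its groups did not overlap, and it rose by 1.85 (SE 0.42, adjusted p = 0.0093). CA12, a carbonic anhydrase of the cell surface, rose by 1.00 (SE 0.28, adjusted p = 0.0302), and LOX, which cross-links collagen, by 1.37 (SE 0.38, adjusted p = 0.033). Vehicle tumours had 16898 ± 1450 CPM summed over the list (n = 4) and doxorubicin-only tumours 20829 ± 3572 (n = 3), while decitabine tumours had 12331 ± 3250 (n = 4) and combination tumours 18558 ± 2544 (n = 4). Hypoxia genes called numbered 1 without decitabine replicate 3, 2 without combination replicate 2 or 4, 3 without combination replicate 1, 4 without decitabine replicate 2, and 13 without decitabine replicate 1. Hypoxia genes called by other settings numbered 14 with DESeq2, 20 with the block and offsets, 22 with no filter on low counts, and 24 with the replicate block. Without decitabine replicate 3 the median of the list was 0.51. EGLN3, CA12 and LOX lost the call without decitabine replicate 3, CA12 and LOX without combination replicate 1, 2 or 4, CA12 without combination replicate 3, and LOX without decitabine replicate 4 (adjusted p up to 0.138). 

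The core of the hypoxia response element is shown in the promoter of ENO2 (chr12:6914330-6914579, plus strand), the member called with each library left out. The capitals mark ACGTG, or CACGT on the other strand.
ENO2: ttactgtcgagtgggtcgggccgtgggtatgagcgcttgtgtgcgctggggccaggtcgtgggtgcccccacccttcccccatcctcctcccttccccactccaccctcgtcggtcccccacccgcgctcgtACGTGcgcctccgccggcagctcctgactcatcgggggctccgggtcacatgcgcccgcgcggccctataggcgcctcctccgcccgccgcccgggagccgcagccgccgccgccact
The core lay 118 bases upstream of the RefSeq start. The whole window lies inside the GENCODE span of ENO2 printed above, so the core is not upstream of the gene as printed there. Of the 30 matched promoters of the list, 50% held it, while 23.8% of all promoters and 23.8% of those of the genes that rose did. The core is not particular to this list: 40% of the matched mitosis promoters, 29% of those of replication and 31.6% of immediate-early promoters held it.

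Of 24 genes of antigen presentation, 5 rose and 0 fell (20.8%), with a median of 0.39. HLA-B, a heavy chain that shows peptides to T cells (ENSG00000234745, chromosome 6, 31269491 to 31357188, minus strand), stood at 727, 747, 603 and 506 CPM with decitabine and at 1155, 1187, 1118 and 1324 CPM with the combination. The lowest combination library was above the highest decitabine library, and HLA-B rose by 0.89 (SE 0.20, adjusted p = 0.00917). Vehicle tumours had 509 ± 149.9 CPM (n = 4) and doxorubicin-only tumours 553 ± 58.4 CPM (n = 3). HLA-C and HLA-E, of the same class, rose by 0.71 (SE 0.17, adjusted p = 0.0147) and 0.69 (SE 0.17, adjusted p = 0.0129). B2M, the light chain they share, rose by 0.46 (SE 0.12, adjusted p = 0.0181), from 2757 to 3254 CPM to 3848 to 4451 CPM. HLA-DMA, which helps to load class II molecules and was named to complete the count, had means of 0.583 and 1.92 CPM (1.64, SE 0.51, adjusted p = 0.0493). HLA genes are near copies of each other, so the counting could have split reads between them and single values are uncertain. Antigen presentation genes called numbered 0 without decitabine replicate 3, 2 without combination replicate 4, 3 without combination replicate 2 or decitabine replicate 4, and 6 higher and 1 lower without decitabine replicate 1. Antigen presentation genes called by other settings numbered 7 higher and 2 lower with the replicate block, 7 higher and 3 lower with the block and offsets, 8 with DESeq2, and 10 with no filter on low counts. HLA-B, HLA-C, HLA-E, B2M and HLA-DMA lost the call without decitabine replicate 3, HLA-C, B2M and HLA-DMA without combination replicate 4, B2M and HLA-DMA without combination replicate 2 or decitabine replicate 4, and HLA-DMA without combination replicate 1 or 3 or decitabine replicate 2 (adjusted p up to 0.201). HLA-DMA was also not called with GC and length offsets or with a minimum of 1 CPM in 4 libraries. Of 45 interferon-stimulated genes, 0 rose and 1 fell (2.22%, beside 6.63% of all genes), with a median of 0.17. The one that fell was RIGI, a sensor of viral RNA, at -0.48 (SE 0.13, adjusted p = 0.0232). The call of RIGI was lost without combination replicate 1 or 2 or decitabine replicate 2 or 3 (adjusted p up to 0.0688). RIGI was also not called with GC and length offsets. Interferon-stimulated genes called numbered 0 without combination replicate 2 or decitabine replicate 2 or 3, and 2 without decitabine replicate 4. Interferon-stimulated genes called by other settings numbered 0 with GC and length offsets, 1 lower and 1 higher in the parental libraries alone, 1 lower and 3 higher in the 8 libraries alone, 1 lower and 5 higher with no filter on low counts, 3 lower and 4 higher with the block and offsets, and 3 lower and 7 higher with the replicate block.

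**Figure D4:**
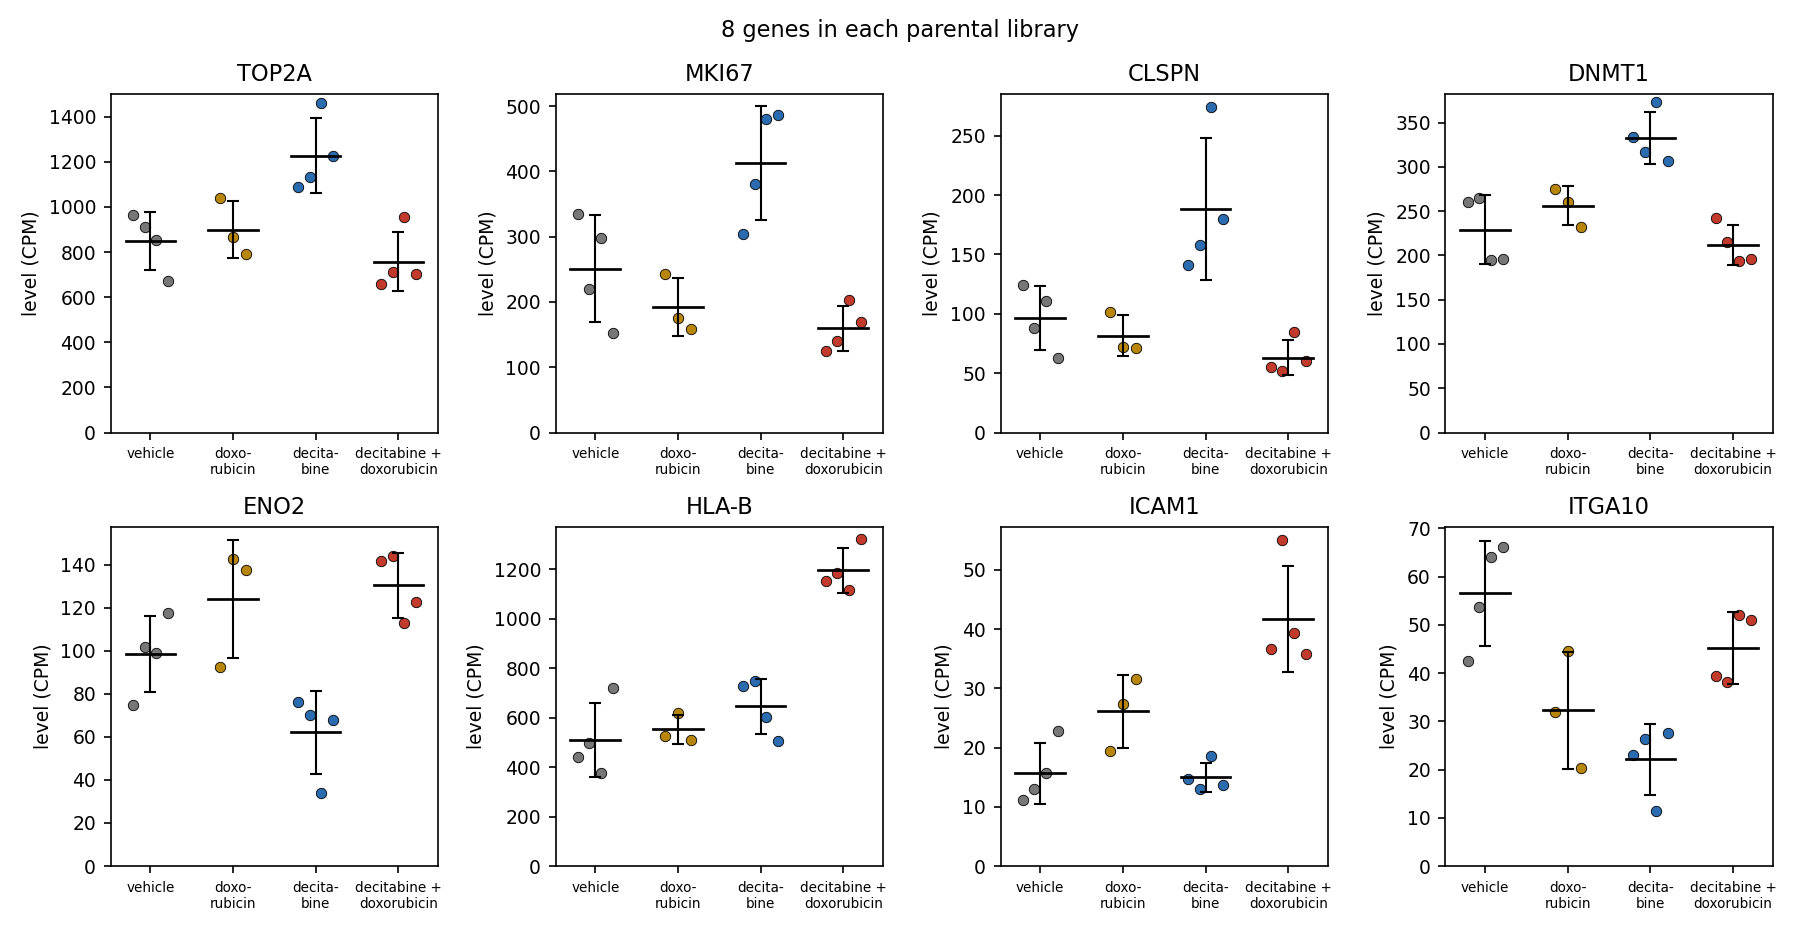
Points are the CPM of 8 genes in each parental library, with the group mean and the SD as an error bar, for 4 vehicle, 3 doxorubicin, 4 decitabine and 4 combination libraries. TOP2A, MKI67, CLSPN and DNMT1 are lower in each combination library than in each decitabine library, and ENO2, HLA-B, ICAM1 and ITGA10 are higher.

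Of 23 NF-kB targets, cytokines and chemokines, 4 rose and 0 fell (17.4%), with a median of 0.52. ICAM1, an adhesion molecule for leukocytes (ENSG00000090339, chromosome 19, 10270835 to 10286615, plus strand), stood at 14.6, 13, 18.5 and 13.7 CPM with decitabine and at 36.7, 55, 39.3 and 35.8 CPM with the combination. All 4 combination libraries lay above the decitabine libraries, and ICAM1 rose by 1.48 (SE 0.27, adjusted p = 0.00338). Vehicle tumours had 15.7 ± 5.12 CPM (n = 4) and doxorubicin-only tumours 26.1 ± 6.16 CPM (n = 3). TNFAIP3, which shuts NF-kB signalling off again, rose by 1.20 (SE 0.27, adjusted p = 0.00827), SOD2, the mitochondrial superoxide dismutase, by 0.90 (SE 0.26, adjusted p = 0.032), and RELB, an NF-kB subunit, by 0.72 (SE 0.21, adjusted p = 0.0365). NF-kB targets called numbered 1 without combination replicate 2 or decitabine replicate 3, and 2 without decitabine replicate 2 or 4. NF-kB targets called by other settings numbered 7 with the block and offsets, and 8 with no filter on low counts. TNFAIP3, SOD2 and RELB lost the call without combination replicate 2 or decitabine replicate 3, SOD2 and RELB without decitabine replicate 2 or 4, SOD2 without combination replicate 1, and RELB without combination replicate 3 or 4 or decitabine replicate 1 (adjusted p up to 0.121). RELB was also not called with GC and length offsets. Of 17 TNF family ligands and death receptors, 3 rose and 0 fell (17.6%). TNFSF10, the death ligand TRAIL, stood at 9.3, 9.78, 6.63 and 5.34 CPM with decitabine and at 13.8, 18.7, 15.9 and 17.5 CPM with the combination, without overlap, and rose by 1.07 (SE 0.31, adjusted p = 0.0327). TNFRSF10D, a decoy receptor for it, rose by 0.66 (SE 0.15, adjusted p = 0.00826), and LTB, lymphotoxin beta, by 1.67 (SE 0.51, adjusted p = 0.0468). TNF family genes called numbered 0 without decitabine replicate 3, and 1 without combination replicate 2 or 4 or decitabine replicate 4. TNF family genes called by other settings numbered 3 higher and 1 lower with the replicate block or with the block and offsets. TNFSF10, TNFRSF10D and LTB lost the call without decitabine replicate 3, TNFSF10 and LTB without combination replicate 2 or 4 or decitabine replicate 4, and LTB without combination replicate 1 or decitabine replicate 2 (adjusted p up to 0.153). LTB was also not called with GC and length offsets or with a minimum of 1 CPM in 4 libraries or without the 2 libraries that stood apart.

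Of 28 immediate-early genes, which cells transcribe within minutes of a stimulus, 4 rose and 0 fell (14.3%), with a median of 0.32. They summed to means of 5734 CPM with vehicle, 6415 with doxorubicin alone, 5238 with decitabine and 6657 with the combination. KLF6, a zinc finger factor, stood at 536, 452, 392 and 500.4 CPM with decitabine and at 778, 1041, 652 and 708 CPM with the combination. The groups did not overlap, and KLF6 rose by 0.76 (SE 0.15, adjusted p = 0.00439). FOS, a subunit of the factor AP-1, stood at 13.7, 10.7, 4.49 and 11.6 CPM with decitabine and at 16.9, 65, 13.7 and 40.4 CPM with the combination. Combination replicates 2 and 4 were high and replicates 1 and 3 were near the decitabine libraries, and FOS rose by 1.75 (SE 0.44, adjusted p = 0.02). ATF3, a stress-induced factor, rose by 1.16 (SE 0.32, adjusted p = 0.0299), and DUSP1, a phosphatase that ends MAP kinase signals, by 0.94 (SE 0.29, adjusted p = 0.0489). Immediate-early genes called numbered 1 without combination replicate 2 or decitabine replicate 3, and 2 without combination replicate 4 or decitabine replicate 2. Immediate-early genes called by other settings numbered 9 with no filter on low counts, 11 with the block and offsets, and 12 with the replicate block. FOS, ATF3 and DUSP1 lost the call without combination replicate 2 or decitabine replicate 3, ATF3 and DUSP1 without combination replicate 4 or decitabine replicate 2, ATF3 without decitabine replicate 1, and DUSP1 without combination replicate 1 or decitabine replicate 4 (adjusted p up to 0.204). FOS and ATF3 were also not called in the 8 libraries alone, and DUSP1 with GC and length offsets or with a minimum of 1 CPM in 4 libraries.

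Of 26 genes of the unfolded protein and integrated stress responses, 4 rose and 0 fell (15.4%). Beside ATF3 these were DDIT3 and PPP1R15A, which lie downstream of ATF4, at 0.78 (SE 0.21, adjusted p = 0.0271) and 0.92 (SE 0.27, adjusted p = 0.0395), and HSPA5, the chaperone of the endoplasmic reticulum, at 0.56 (SE 0.16, adjusted p = 0.0335). Stress response genes called numbered 0 without combination replicate 2 or 4 or decitabine replicate 3, 0 higher and 1 lower without decitabine replicate 2, and 2 higher and 1 lower without decitabine replicate 1. Stress response genes called by other settings numbered 2 with GC and length offsets, 4 higher and 1 lower with DESeq2, 6 higher and 1 lower without the 2 libraries that stood apart, and 8 higher and 1 lower with the replicate block or with the block and offsets. DDIT3, PPP1R15A and HSPA5 lost the call without combination replicate 2 or 4 or decitabine replicate 2 or 3, DDIT3 without decitabine replicate 1, and PPP1R15A without combination replicate 1 or decitabine replicate 4 (adjusted p up to 0.182). DDIT3 and PPP1R15A were also not called with GC and length offsets. Of 23 heat shock proteins and chaperones, 4 fell and 0 rose (17.4%). HSPD1, the mitochondrial chaperonin, fell by 0.72 (SE 0.15, adjusted p = 0.0054) and HSPA9, the mitochondrial HSP70, by 0.52 (SE 0.13, adjusted p = 0.0147), and HSPA4 and HSPA8, of the cytosol, were at -0.55 (SE 0.12, adjusted p = 0.00597) and -0.64 (SE 0.19, adjusted p = 0.033). Chaperones called numbered 2 without decitabine replicate 3, and 4 lower and 1 higher without combination replicate 1. Chaperones called by other settings numbered 4 lower and 4 higher with no filter on low counts, and 7 lower and 2 higher with the replicate block or with the block and offsets. HSPA9 and HSPA8 lost the call without decitabine replicate 3, and HSPA8 without combination replicate 2 or 3 or decitabine replicate 4 (adjusted p up to 0.133). 

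Of 34 cytosolic ribosomal protein genes, 4 rose and 0 fell (11.8%), with 32 fitted values above 0 and a median of 0.29. RPLP2, of the ribosomal stalk, stood at 1202, 1118, 1023 and 1129.9 CPM with decitabine and at 1373, 1572, 1344 and 1640.4 CPM with the combination, without overlap, and rose by 0.41 (SE 0.11, adjusted p = 0.0223). RPL13 and RPL15, of the large subunit, were at 0.52 (SE 0.16, adjusted p = 0.0495) and 0.33 (SE 0.10, adjusted p = 0.04996). The list summed to means of 35057 CPM with vehicle, 39122 with doxorubicin alone, 30718 with decitabine and 38152 with the combination. Ribosomal protein genes have many processed copies, so single values are uncertain. Ribosomal protein genes called numbered 0 without combination replicate 2 or 4 or decitabine replicate 2, 3 or 4, and 1 without combination replicate 1. Ribosomal protein genes called by other settings numbered 1 with GC and length offsets, 2 with DESeq2 size factors or with a minimum of 1 CPM in 4 libraries, 17 with the block and offsets, and 23 with the replicate block. RPLP2, RPL13 and RPL15 lost the call without combination replicate 2 or 4 or decitabine replicate 2, 3 or 4, RPL13 and RPL15 without combination replicate 1, and RPL15 without decitabine replicate 1 (adjusted p up to 0.22). RPLP2, RPL13 and RPL15 were also not called with GC and length offsets, RPL13 and RPL15 with DESeq2 size factors or with a minimum of 1 CPM in 4 libraries, RPLP2 and RPL15 with no filter on low counts, and RPL15 in the parental libraries alone or in the 8 libraries alone. Of 26 genes of ribosome biogenesis, 5 fell and 0 rose (19.2%), with a median of -0.27. WDR12, needed for the large subunit, fell by 0.60 (SE 0.12, adjusted p = 0.00529), NCL, a main protein of the nucleolus, by 0.45 (SE 0.12, adjusted p = 0.024), and NOP58 and NOP56, of the particles that methylate ribosomal RNA, by 0.39 and 0.53. POLR1E, a subunit of RNA polymerase I, was at -0.42 (SE 0.13, adjusted p = 0.0392), and NOP56 was named to complete the count. Ribosome biogenesis genes called numbered 1 without combination replicate 2 or decitabine replicate 3, 2 without combination replicate 1, and 6 lower and 1 higher without combination replicate 3. Ribosome biogenesis genes called by other settings numbered 2 lower and 1 higher in the 8 libraries alone, 3 with upper quartile factors, 7 lower and 1 higher with GC and length offsets, 9 without the 2 libraries that stood apart, 11 lower and 1 higher with the replicate block, and 14 lower and 1 higher with the block and offsets. NCL, NOP58, NOP56 and POLR1E lost the call without combination replicate 2 or decitabine replicate 3, NCL, NOP56 and POLR1E without combination replicate 1, NCL and NOP56 without decitabine replicate 4, NOP58 without combination replicate 3, and POLR1E without combination replicate 4 (adjusted p up to 0.21). NCL, NOP56 and POLR1E were also not called in the 8 libraries alone, NOP56 and POLR1E with upper quartile factors, NOP58 and POLR1E with no filter on low counts, and NOP56 with a minimum of 1 CPM in 4 libraries.

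Of 30 p53 target genes, 2 rose and 0 fell (6.67%, near the 6.63% of all genes), with a median of -0.04. The 2 were TNFRSF10D and PLK3, a stress kinase, at 0.66 (SE 0.20, adjusted p = 0.0396). CDKN1A, the cell cycle brake, stood at 76.9, 71.7, 76.6 and 72.9 CPM with decitabine and at 70.4, 64.5, 72.6 and 61.9 CPM with the combination. The groups overlapped, and CDKN1A was not called (-0.15, SE 0.19, adjusted p = 0.69). MDM2, the ligase that removes p53, was at -0.23 (SE 0.14, adjusted p = 0.343), and GDF15, a secreted stress factor, at 0.47 (SE 0.25, adjusted p = 0.265). p53 targets called numbered 0 without decitabine replicate 3, and 1 without combination replicate 1, 2 or 4 or decitabine replicate 1 or 4. p53 targets called by other settings numbered 1 with GC and length offsets, 4 with no filter on low counts, 6 higher and 1 lower with the replicate block, and 8 higher and 2 lower with the block and offsets. In those last 2 settings 29 p53 targets were tested, and 2578 and 2693 of all 12298 genes were called. The call of PLK3 was lost without combination replicate 1, 2 or 4 or decitabine replicate 1, 3 or 4 (adjusted p up to 0.155). PLK3 was also not called with GC and length offsets or in the parental libraries alone or in the 8 libraries alone. CDKN1C, another inhibitor of cyclin-dependent kinases and the one called gene of 13 imprinted genes, stood at 22.6, 22.2, 8.58 and 22.1 CPM with decitabine and at 42.3, 53.4, 35.9 and 36.2 CPM with the combination. Its groups did not overlap, and it rose by 1.16 (SE 0.24, adjusted p = 0.00529).

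Of 28 genes of the BCL2 family and apoptosis, 1 fell and 0 rose (3.57%, beside 6.63% of all genes). BCL2 itself, which protects cells from death, stood at 11.6, 12.8, 14 and 16 CPM with decitabine and at 6.33, 5.5, 8.27 and 6.25 CPM with the combination. The groups did not overlap, and BCL2 fell by 1.04 (SE 0.23, adjusted p = 0.00722). Apoptosis genes called numbered 1 lower and 1 higher with no filter on low counts or in the parental libraries alone or in the 8 libraries alone, 2 lower and 1 higher with the replicate block, and 2 lower and 5 higher with the block and offsets. Of 23 genes of senescence and its secretory phenotype, 2 fell and 1 rose (13%). LMNB1, a nuclear lamin, and HMGB2, a chromatin protein, which senescent cells lose, fell by 1.00 (SE 0.23, adjusted p = 0.00961) and 0.84 (SE 0.18, adjusted p = 0.00732), and TIMP1, an inhibitor of matrix proteases, rose by 0.68 (SE 0.17, adjusted p = 0.0147). Senescence genes called numbered 1 lower and 0 higher without decitabine replicate 3, and 2 lower and 0 higher without combination replicate 2 or 4. Senescence genes called by other settings numbered 2 lower and 2 higher without the 2 libraries that stood apart or with DESeq2, 2 lower and 3 higher in the parental libraries alone, 2 lower and 8 higher in the 8 libraries alone, and 3 lower and 8 higher with no filter on low counts or with the replicate block or with the block and offsets. LMNB1 and TIMP1 lost the call without decitabine replicate 3, and TIMP1 without combination replicate 2 or 4 (adjusted p up to 0.0968). 

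Of 14 ABC transporters, 2 rose and 0 fell (14.3%, beside 6.63% of all genes). ABCA1, which exports cholesterol, stood at 7.78, 4.03, 7.22 and 8.82 CPM with decitabine and at 22.7, 20.8, 14.7 and 14.6 CPM with the combination, without overlap, and rose by 1.39 (SE 0.35, adjusted p = 0.0189). ABCC3, an exporter of organic anions, rose by 1.04 (SE 0.31, adjusted p = 0.0361). ABCB1, the pump that exports doxorubicin, had 4 counts over the 4 decitabine libraries and 2 over the 4 combination libraries and was not tested. Of 13 genes of decitabine uptake, activation and breakdown, 2 fell and 0 rose (15.4%). These were RRM2 and SAMHD1, which splits deoxynucleoside triphosphates, SAMHD1 falling by 0.57 (SE 0.17, adjusted p = 0.0365). None of 12 enzymes that reduce doxorubicin or are linked to its heart toxicity was called, CBR1, a carbonyl reductase, being at -0.26 (SE 0.13, adjusted p = 0.21). ABC transporters called numbered 0 without combination replicate 1 or decitabine replicate 3, 1 without combination replicate 2, 3 or 4 or decitabine replicate 2 or 4, and 1 higher and 1 lower without decitabine replicate 1. ABC transporters called by other settings numbered 2 higher and 1 lower with no filter on low counts, and 2 higher and 3 lower with the replicate block or with the block and offsets. ABCA1, ABCC3 and SAMHD1 lost the call without combination replicate 1 or decitabine replicate 3, ABCA1 and SAMHD1 without combination replicate 2 or decitabine replicate 2, ABCC3 and SAMHD1 without combination replicate 4, and ABCC3 without combination replicate 3 or decitabine replicate 1 or 4 (adjusted p up to 0.128). SAMHD1 was also not called with GC and length offsets.

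In other lists the share of genes called varied, from none to above that of all genes. Beside 6.63% of all genes, the share was 6.9% for cholesterol and fatty acid synthesis, 7.14% for collagens and matrix and 8.7% for NRF2 targets. It was 13.6% for matrix proteases and inhibitors and 16% for tubulins and microtubule-binding proteins. None of 32 nuclear genes of oxidative phosphorylation, 13 mitochondrially encoded genes, 20 mesenchymal genes, 8 cancer-testis genes and 5 metallothioneins was called. With the replicate number as a block, genes called higher and lower in these lists numbered 2 and 0, 1 and 2, 3 and 1, 1 and 0 and 2 and 0 in that order. In the fits without the block, at most 2 genes of any of these lists were called. Of 29 genes of cholesterol and fatty acid synthesis, ELOVL6, which lengthens fatty acids, fell by 1.03 (SE 0.23, adjusted p = 0.00874) and ACACA, which starts their synthesis, by 0.50 (SE 0.15, adjusted p = 0.0381), and none rose, with 25 fitted values below 0. Lipid synthesis genes called numbered 1 without combination replicate 1, 2 or 4 or decitabine replicate 2, 3 or 4, and 4 without combination replicate 3. Lipid synthesis genes called by other settings numbered 5 in the parental libraries alone or in the 8 libraries alone or with DESeq2, 6 with no filter on low counts or without the 2 libraries that stood apart, 12 with the replicate block, and 14 with the block and offsets. Of 23 NRF2 targets, FTL, the ferritin light chain, rose by 0.58 (SE 0.16, adjusted p = 0.0313) and TXNRD1, a thioredoxin reductase, fell by 0.75 (SE 0.20, adjusted p = 0.0232). Of 28 collagen and matrix genes, THBS1, thrombospondin 1, and FBN1, fibrillin 1, fell by 0.56 (SE 0.12, adjusted p = 0.00661) and 0.67 (SE 0.18, adjusted p = 0.0213), and none rose. COL1A1, the main fibrillar collagen, stood at 549.6, 606, 1609 and 1171 CPM with decitabine and at 269.6, 528, 505 and 498 CPM with the combination, and was not called (-1.13, SE 0.57, adjusted p = 0.24), but was with the replicate block (adjusted p = 0.0481), and was not with the block and GC and length offsets. Of 22 matrix proteases and inhibitors, ADAMTS1 and TIMP1 rose and MMP16, a membrane-bound metalloproteinase, fell by 0.67 (SE 0.19, adjusted p = 0.032). Of 25 tubulins and microtubule-binding proteins, 3 fell, CKAP5, MAP1B and CLIP1, by 0.49 (SE 0.14, adjusted p = 0.032), 0.36 (SE 0.11, adjusted p = 0.0374) and 0.25 (SE 0.08, adjusted p = 0.0463). MAPT, the tau protein, stood at 10.3, 11.3, 7.02 and 11.1 CPM with decitabine and at 21.2, 19.1, 24.4 and 26 CPM with the combination, without overlap, and rose by 1.19 (SE 0.20, adjusted p = 0.00231). With the replicate number as a block, genes called higher and lower numbered 4 and 2 among NRF2 targets, 3 and 3 among matrix genes, 7 and 2 among proteases and inhibitors and 3 and 5 among tubulins. ACACA, FTL, TXNRD1, FBN1, MMP16, CKAP5, MAP1B and CLIP1 lost the call without combination replicate 2 or decitabine replicate 3 or 4, ACACA, FBN1, MMP16, CKAP5, MAP1B and CLIP1 without combination replicate 1, ACACA, FTL, MAP1B and CLIP1 without combination replicate 4, ACACA, FTL and MMP16 without decitabine replicate 2, TXNRD1, MMP16 and MAP1B without combination replicate 3, and FTL and MAP1B without decitabine replicate 1 (adjusted p up to 0.134). FTL, MMP16, CKAP5, MAP1B and CLIP1 were also not called with GC and length offsets, ACACA, MMP16, MAP1B and CLIP1 with no filter on low counts, MAP1B and CLIP1 with upper quartile factors, CKAP5 and CLIP1 in the 8 libraries alone, and CLIP1 with a minimum of 1 CPM in 4 libraries or in the parental libraries alone or with the block and offsets.

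The largest rises, with a mean of 5 CPM or more in the combination group and no overlap, came from genes of many functions. SLC6A8, the creatine transporter, stood at 3.04, 1.15, 0.585 and 2.32 CPM with decitabine and at 5.4, 9.24, 6.86 and 6.46 CPM with the combination, and rose by 1.97 (SE 0.36, adjusted p = 0.00334). CYTIP, which binds cytohesins, stood at 1.52, 4.03, 0.39 and 1.86 CPM with decitabine and at 11, 8.25, 4.84 and 6.25 CPM with the combination, and rose by 1.95 (SE 0.48, adjusted p = 0.0157). ADAMTS1, a secreted protease of the matrix, rose by 1.50 (SE 0.36, adjusted p = 0.0143), from 48.9 to 103 CPM to 122 to 312 CPM. CSGALNACT1, an enzyme of chondroitin sulfate synthesis, rose by 1.58 (SE 0.32, adjusted p = 0.00524), and PPL, the desmosomal protein periplakin, by 1.48 (SE 0.40, adjusted p = 0.0252). RNU4-2, a spliceosomal RNA with near-identical copies, SNORD3A, a small nucleolar RNA, and MT-TL1, a mitochondrial transfer RNA, were at 1.80 (SE 0.40, adjusted p = 0.00908), 1.49 (SE 0.39, adjusted p = 0.0227) and 1.50 (SE 0.43, adjusted p = 0.0384). The mature forms of these RNAs have no long poly(A) tail, and the libraries were primed on that tail. RNU4-2 stood at 10.3, 8.63, 3.31 and 6.96 CPM with decitabine and at 13, 51.1, 11.9 and 26.2 CPM with the combination. Like FOS and ATF3, all 3 were highest in combination replicates 2 and 4, and whether these libraries share a cause was not tested. CYTIP, ADAMTS1, PPL, RNU4-2, SNORD3A and MT-TL1 lost the call without decitabine replicate 3, ADAMTS1, PPL, RNU4-2, SNORD3A and MT-TL1 without combination replicate 2, CYTIP and PPL without combination replicate 1, PPL and MT-TL1 without decitabine replicate 1, SNORD3A and MT-TL1 without combination replicate 4, PPL without decitabine replicate 4, and MT-TL1 without decitabine replicate 2 (adjusted p up to 0.144). RNU4-2 and MT-TL1 were also not called in the 8 libraries alone, and MT-TL1 in the parental libraries alone.

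Below 5 CPM, SIK1, a kinase induced by cyclic AMP, had 4 counts over the 4 decitabine libraries and 66 over the 4 combination libraries, and rose by 3.86 (SE 0.64, adjusted p = 0.0019). NEAT1, the RNA scaffold of paraspeckles, stood at 354, 403, 259 and 237 CPM with decitabine and at 746, 704, 567 and 465 CPM with the combination. Every combination library was higher, and NEAT1 rose by 0.99 (SE 0.23, adjusted p = 0.0105). MALAT1, another abundant nuclear RNA, was at 0.49 (SE 0.16, adjusted p = 0.0634) and was called with the replicate block (adjusted p = 0.00136). A near-identical copy of SIK1 exists in the genome build, so its value is uncertain. SIK1, NEAT1 and MALAT1 were named after their values were seen. The call of NEAT1 was lost without decitabine replicate 3 (adjusted p = 0.0635). 

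By annotation, 503 of the 526 genes that fell and 302 of the 369 that rose were protein coding, and 27 long intergenic RNAs rose while 2 fell. The longest transcript had a median of 4616 bases among genes that fell, 2920 among those that rose and 3489 among all genes tested. Transcript GC content had medians of 41.45%, 50.56% and 47.24% in that order, and the genes spanned medians of 52.19, 18.06 and 29.56 kb. These are descriptions with no test. With offsets for GC content and length in the fit, 752 genes were called, 310 higher and 442 lower, with 26 mitosis, 18 replication and 8 hypoxia genes among them.

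Whether the response to doxorubicin differed with and without decitabine was tested as the difference of the change from decitabine to the combination and the change from vehicle to doxorubicin alone. The difference was called for 1 gene in edgeR, 0.00741% of those tested, with 1552 genes at an unadjusted p under 0.05 and 73 called by DESeq2. That gene was ITGA10, the integrin alpha 10 chain, a collagen receptor (ENSG00000143127, chromosome 1, 145891208 to 145910189, minus strand). ITGA10 stood at 56.6 ± 10.9 CPM with vehicle (n = 4), 32.3 ± 12.1 with doxorubicin alone (n = 3), 22.1 ± 7.32 with decitabine (n = 4) and 45.2 ± 7.39 with the combination (n = 4). It rose by 1.03 (SE 0.22, adjusted p = 0.00573) on decitabine and was at -0.80 (SE 0.23, adjusted p = 0.144) without it, a difference of 1.84 (SE 0.32, adjusted p = 0.0459). The adjusted p of the difference in edgeR was 0.0997 with the replicate number as a block, 0.131 in a fit of the parental libraries and 0.0861 without the 2 libraries that stood apart. It was 0.038 with upper quartile factors, 0.0467 with DESeq2 size factors and 0.0471 with GC and length offsets. With a minimum of 1 CPM in 4 libraries it was 0.0438, with no filter 1.3e-10, and in the test of DESeq2 0.00016. With single libraries left out it was 0.00826 to 0.177, and the call held only without decitabine replicate 4, doxorubicin replicate 2 or vehicle replicate 1.

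Doxorubicin alone changed 31 genes against vehicle, 5 higher (0.0371%) and 26 lower (0.193%). Of the 526 genes that fell when doxorubicin was added to decitabine, 13 also fell with doxorubicin alone, 405 (77%) had a fitted value below 0 there, and their median was -0.22. Of the 369 that rose, 0 also rose with doxorubicin alone, 230 (62.3%) had a value above 0, and the median was 0.10. Mitosis genes had a median of 0.09 with doxorubicin alone, replication genes 0.09, repair genes -0.06, hypoxia genes 0.23 and antigen presentation -0.01. All genes tested had a median of 0.025 there, and their shares above and below 0 were not counted. These comparisons share no library. Across 13495 genes, which are not independent replicates, their fitted values had a Pearson correlation of 0.182 as a description.

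**Figure D5:**
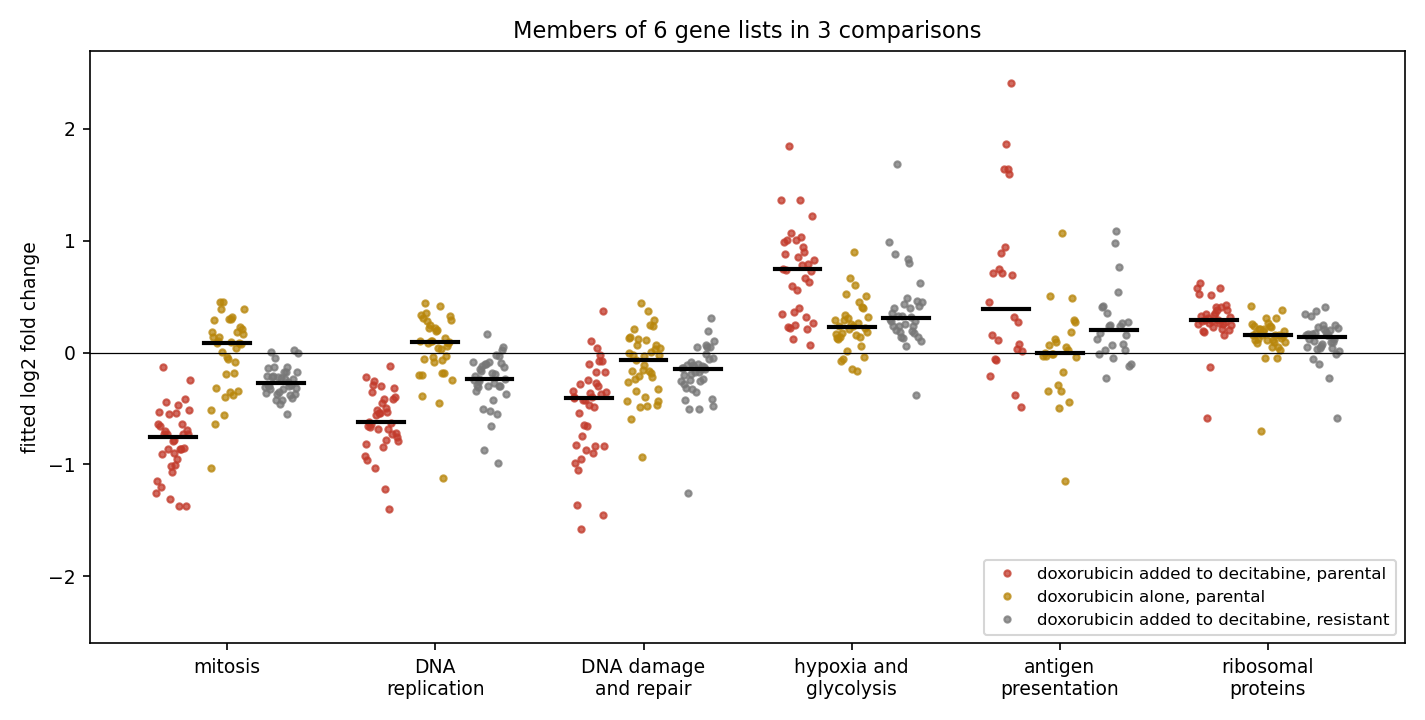
Points are fitted log2 fold changes of the tested members of gene lists and lines their medians, for doxorubicin added to decitabine in parental tumours, doxorubicin alone in parental tumours and doxorubicin added to decitabine in resistant tumours. Mitosis genes have medians of -0.76, 0.09 and -0.28 in that order, and hypoxia genes 0.74, 0.23 and 0.31.

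In the resistant line, with 3 libraries against 3, the same addition of doxorubicin called 0 genes (0%) in edgeR, with 504 at an unadjusted p under 0.05. The difference between the lines was called for 0 genes in edgeR and 1 in DESeq2, with 883 genes at an unadjusted p under 0.05, so a difference between the lines was not shown. Of the 526 genes that fell in parental tumours, 440 (83.7%) had a fitted value below 0 in resistant tumours, with a median of -0.13. Of the 369 that rose, 315 (85.4%) had a value above 0, with a median of 0.20. Mitosis genes had a median of -0.28 there, replication genes -0.23, repair genes -0.14, hypoxia genes 0.31 and antigen presentation 0.21. The median of all genes tested was -0.0036 in resistant tumours, and their shares above and below 0 were not counted. TOP2A stood at 1086 ± 201 CPM with decitabine (n = 3) and at 841 ± 94.6 with the combination (n = 3), a value of -0.37 (SE 0.17, adjusted p = 1). EGLN3 was at 1.69 (SE 0.73, adjusted p = 1) and HLA-B at 0.24 (SE 0.23, adjusted p = 1). ITGA10 stood at 50.5 ± 13.4 and 53.5 ± 4.96 CPM in these groups.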

How the data were processed

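Libraries of poly(A)-selected tumour RNA were made with Lexogen QuantSeq FWD, which reads near the 3′ end, per the labels' protocols, and levels here are counts per library scaled to CPM. The deposited values are raw counts per gene as whole numbers, not normalised by the authors as far as the values show. The submitters' processing notes name cutadapt, STAR 2.7.3a, featureCounts, DESeq2 and GRCh38.p10. How strand and mouse reads were handled, and which annotation was counted, is not given in the sources used here, so reads of near-identical, overlapping or antisense genes and of mouse stroma may have been counted for a human gene. Groups came from the sample titles.

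The filter filterByExpr, with a count of 10 and a total of 15 as its minimums, kept 13495 of 58302 genes, which hold 99.72% of the counts. All 29 libraries entered 1 quasi-likelihood fit of 8 group means in edgeR 4.0.16 under R 4.3.3, with trimmed mean of M-values factors of 0.896 to 1.07 and 21 residual degrees of freedom. The common dispersion was 0.0304, and 3398261 to 5382295 counts per library set the precision. SE is the fitted log2 change divided by the root of F, and p-values were adjusted by Benjamini-Hochberg over all genes tested. Libraries within a group differed by more than sampling noise (chi-square per degree of freedom 3.97 to 13.6). Scripts were tested on simulated data.

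Deviations from the group means over 5000 genes correlated between decitabine and combination libraries of the same replicate number at 0.688, 0.220, 0.151 and 0.662. Libraries of different numbers correlated at -0.744 to 0.396. Decitabine replicate 4 with combination replicate 3 (0.396) and decitabine replicate 1 with combination replicate 2 (0.324) lay above the same-number values of 0.220 and 0.151. Each decitabine library correlated highest with the combination library of its own number, replicate 2 narrowly (0.220 against 0.218 with combination replicate 1). Combination replicates 2 and 3 correlated higher with a decitabine library of another number. The replicate numbers come from the titles, and whether they pair the libraries is not settled by these values. The main test takes no account of a pairing, and the block stayed an alternative. Other alternatives were DESeq2 1.42.0, DESeq2 size factors, upper quartile factors, other filters on low counts, fits of fewer groups, fits without single libraries and without 2 libraries that stood apart (vehicle replicate 3 of the parental and decitabine replicate 2 of the resistant line), and, chosen after seeing the data, offsets for GC content and length.

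The members and the 44 gene lists were chosen with earlier results of these data known. The text names genes from the 15 largest changes per direction among called genes whose groups did not overlap and whose higher mean reached 5 CPM, up to 4 called members of each list by smallest p or the 2 smallest p where none was called, called genes of the differences, and TOP2A, TOP2B, CDKN1A, MDM2, GDF15, DNMT1, DNMT3A, DNMT3B and ABCB1; a part of these is printed, and some named genes are not reported here. Coordinates and gene types are from GENCODE 29 on GRCh38. Promoters are from RefSeq on GRCh38.p14, where 10019 of the 13495 genes matched by symbol.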

Additional observations from a re-analysis of the deposited data

Results flagged for a closer look

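In 18 of 304 groups of 4 libraries examined, 1 library lay far from the other 3, by the size of its gap to the nearest relative to the range; chance alone gives about 1 in 20. In the decitabine group, replicate 3 had the highest ESCO2 (18.33 CPM, the others 12.46 to 13.23) and CDK1 (208.6 CPM, the others 154.5 to 162.5). The same library had the lowest CDKN1C (8.58 CPM, the others 22.05 to 22.59) and the lowest sum over matrix proteases and inhibitors (3266 CPM, the others 3847 to 3891). Decitabine replicate 1 had the lowest ELOVL6 (41.39 CPM) and the highest sum of adipocyte markers (6.645 CPM). Decitabine replicate 2 had the highest PPL (6.903 CPM) and ABCC3 (3.835 CPM), and replicate 4 the highest sum over the unfolded protein and integrated stress responses (6286 CPM).

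In the combination group, replicate 3 had the highest ELOVL6 (31.88 CPM), CDC6 (64.57 CPM), PRIM1 (5.852 CPM), MDM2 (144.3 CPM) and sum over DNA damage checkpoint and repair genes (2186 CPM, the others 2007 to 2021). Combination replicate 1 had the lowest HSPD1 (172.2 CPM, the others 200.6 to 202.2) and COL1A1 (269.6 CPM, the others 498.5 to 527.6). Combination replicate 2 had the lowest ABCC3 (4.126 CPM) and replicate 4 the lowest POLR1E (23.54 CPM).

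For ITGA10 the difference of the response to doxorubicin with and without decitabine was called, at 1.83613 on the log2 scale (edgeR, adjusted p = 0.0459). Its adjusted p was 0.00826 to 0.177 with single libraries left out and 0.0997 with the replicate number as a block. The call held with other scaling factors, other filters on low counts, GC and length offsets, and DESeq2. The adjusted p was 0.131 in the parental libraries alone and 0.0861 without the 2 libraries that stood apart, so the difference is uncertain.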

How the results depend on the processing

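No printed gene that was tested changed direction for the addition of doxorubicin under the alternatives run. With the replicate number as a block, TOP2B, COL1A1 and MALAT1 gained a call and the block changed no other call of a gene printed with its own test; SIK1 and HLA-DMA could not be compared. With GC and length offsets beside the block, CLIP1 lost its call, CBR1 gained one and COL1A1 was not called. The total of 895 genes became 1028 in the 8 libraries alone, and 210 to 1151 with single libraries left out. In fits of those 8 libraries it was 2578 with the replicate number as a block and 2693 with the block and GC and length offsets. The number higher, 369, became 622 with no filter on low counts, 557 without the 2 libraries that stood apart, 1276 with the block, 1239 with the block and offsets, and 51 to 363 with single libraries left out. The number lower, 526, became 1302, 1454 and 159 to 788 with the block, the block and offsets, and single libraries left out. The difference with and without decitabine, called for 1 gene, was called for 311 with no filter, 0 in the parental libraries alone, 0 without the 2 libraries that stood apart, 0 with the block, 73 with DESeq2 and 0 to 2 with single libraries left out. The difference between the lines was called for 80 genes with no filter and 1 with DESeq2. The cause of these shifts was not tested. At this depth, genes of few reads such as ABCB1 were not tested.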
